A study of Rattus norvegicus with 4 samples.

Results

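The mixed inoculum was set against methicillin-resistant Staphylococcus aureus (MRSA) alone in RNA of the rat middle ear mucosa. The mixture, MRSA + PA, also held Pseudomonas aeruginosa (PA), at the same total CFU (colony forming units). The comparison used 2 of the 4 libraries of the study and was made over the 15786 of 27832 features that were at least 300 bp long and averaged 1 FPKM or more across the 4 libraries. FPKM gives sequenced fragments relative to the length of the transcript and the size of the library, and a feature is a transcribed locus, usually 1 gene. The libraries of media and of PA are given beside it as levels and were not part of the comparison. Where 4 levels follow each other without names, they are in the order MRSA, MRSA + PA, PA and media. With 1 library a side, the presence of PA, any smaller dose of MRSA, the animals and the tissue taken cannot be told apart.

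All groups were Sprague-Dawley (SD) rats, whose age is not given in the sources used here, injected once through the eardrum of the right ear. The MRSA group received 50 µL of tryptic soy broth with 10000000 CFU of MRSA, the MRSA + PA group the same volume and CFU of a mixed culture of both species, the PA group PA alone, and the media group broth without bacteria as vehicle. The share of each species in the mixed culture is not given. The lining of the bulla (the bony shell of the middle ear) was scraped 1 week later, and the number of rats behind each library is not stated. Each condition is 1 library, so the differences below are sizes without a test, and whether they exceed the spread between animals could not be examined.

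The middle ear is lined by a thin mucosa of ciliated, secretory and basal epithelial cells on connective tissue that lies directly on bone. Ciliated cells sweep mucus toward the Eustachian tube, secretory cells release mucins and antimicrobial proteins, and the bone beneath is continually built by osteoblasts and resorbed by osteoclasts. A small muscle, the tensor tympani, and its tendon also enter the cavity. In chronic otitis media, lymphocytes, plasma cells and macrophages collect in this lining, and remodelling of the adjoining bone is well known.

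The label of mucosa was checked against cell type markers. EPCAM, an adhesion protein of epithelium, had 266 FPKM in MRSA and 222 in MRSA + PA, beside 254 in PA and 237 in media, and BPIFA1, a secreted airway protein, 11118, 13362, 7472 and 25725 FPKM. FOXJ1, the regulator of motile cilia, stood at 34.0, 16.6, 22.0 and 23.0 FPKM. Bone and osteoclast markers were as plain, with BGLAP (osteocalcin) at 2282, 2717, 1529 and 5905 FPKM and CTSK (the collagen-degrading cathepsin K of osteoclasts) at 1259.8, 2491, 659 and 1172 FPKM. Of the markers of pigment cells, TYR had 0.0189 FPKM in media and 0 elsewhere, and DCT and PMEL were under 1 FPKM in each. MLANA, another pigment cell gene, had 1.83, 3.44, 0.497 and 1.53 FPKM. The tissue thus held epithelium together with bone-associated cells in each library, while striated muscle, as shown next, was abundant in media and MRSA and close to absent in PA and MRSA + PA.

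Most features had similar levels in both libraries. The median log2 difference (MRSA + PA minus MRSA, after 0.1 FPKM was added to each value) was -0.01, and the middle 50 percent of features lay between -0.21 and 0.14. At least 2-fold higher in MRSA + PA were 236 features, 1.49% of those compared, and at least 2-fold lower 870, or 5.51%. Differences of 4-fold or more were found for 68 higher and 333 lower features. The lower side of the comparison is therefore the longer one, and it stands out as the tail below the diagonal in the plot of all features.

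The share of features past 2-fold differed with their level. Among the 2060.0 features with a mean under 2 FPKM over the 2 libraries, 4.27% were higher and 15% lower. Between 5 and 20 FPKM these shares were 0.611% and 3.77%, and from 100 FPKM upward 1.96% and 3.03%. The shares also differed by annotation, with 0.580% higher and 3.85% lower among the 10868 annotated loci with new isoforms, and 5.81% and 13% among the 2134 loci without earlier annotation. MRSA + PA was listed at 0 for 92 of the lower features and MRSA at 0 for 22 of the higher ones.

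**Figure D1:**
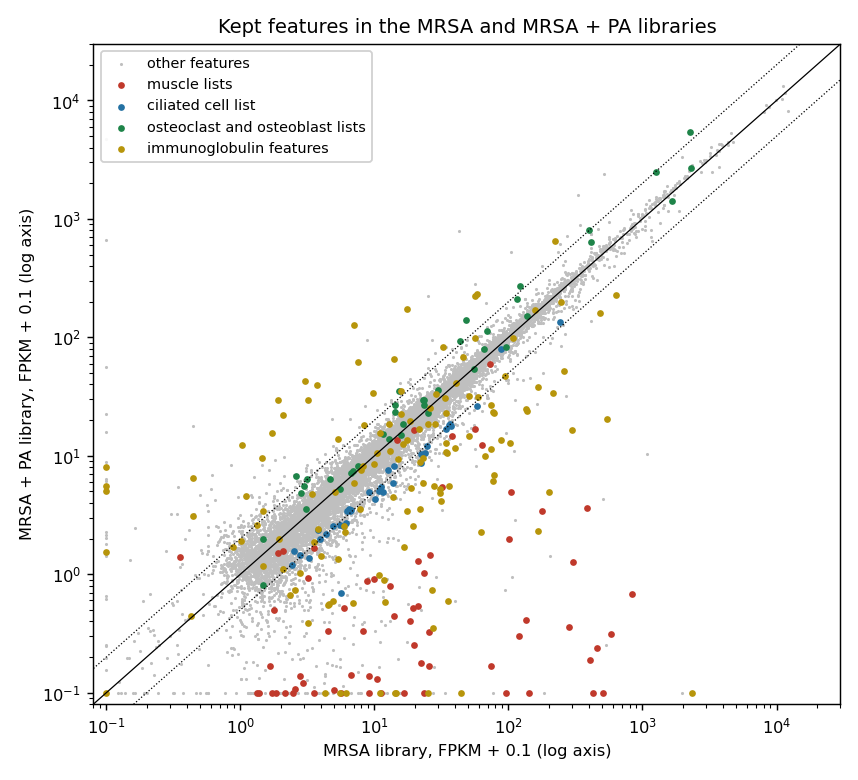
FPKM + 0.1 of the kept features in the MRSA library (x, log axis) and the MRSA + PA library (y, log axis), 1 point a feature, with the line of equality (solid) and the 2-fold limits (dotted). Most muscle list genes (red) lie far below the diagonal, ciliated cell genes (blue) run along the lower dotted line, most osteoclast and osteoblast genes (green) lie on or above the diagonal, and immunoglobulin features (yellow) scatter to both sides.

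Transcripts of striated muscle made up most of the far end of the lower side, though 64 of the 870 lower features were members of the muscle lists and 806 were not. Of 30 kept members of the list of contractile filament proteins, 30 were at least 2-fold lower in MRSA + PA than in MRSA, against 5.51% of all features. Their median log2 difference was -6.30, beside -0.01 for all features. Of 23 members of the list of muscle calcium handling and energy supply, 22 were lower, with a median of -5.55. Summed over the contractile list, the level was 3735 FPKM in MRSA and 11.4 in MRSA + PA, beside 20.8 in PA and 9848 in media. In bulk RNA, fewer cells of a type and less RNA per cell cannot be told apart.

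Single muscle genes showed the same order of libraries. MYLPF, the regulatory light chain of fast myosin, had 830.0 FPKM in MRSA and 0.580 in MRSA + PA, beside 1.46 in PA and 1948 in media, and TNNC2, the calcium sensor of fast fibres, 581, 0.213, 0.682 and 1698 FPKM. These are differences of 1220.0-fold and 1860.0-fold between MRSA and MRSA + PA on the scale with 0.1 FPKM added. CKM, which buffers energy as muscle creatine kinase, had 409, 0.0901, 0.187 and 1028 FPKM, and MB (myoglobin, the oxygen store of muscle) 461, 0.138, 0.888 and 1177 FPKM. MYL1 and MYL2, light chains of fast and slow myosin, had 428 and 503 FPKM in MRSA and were listed at 0 in MRSA + PA, as was SLN (sarcolipin, an inhibitor of the calcium pump), which had 142 FPKM in MRSA. MRSA + PA was listed at 0 for 8 of the 30 contractile genes, and over the members above 0 in both libraries the median was -5.92. Across these genes MRSA stood below media and far above both libraries that had received PA. The paper's real-time PCR, given relative to media, did not show this order for every muscle gene. It listed larger falls with MRSA than with the mixture for ACTA1, MYH1, EEF1A2 and HRC, and a smaller fall for MYOM2.

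Some members of the muscle lists were closer together. CASQ2, a calcium store protein, was the only one of the 23 calcium and energy genes within 2-fold, at 1.80 FPKM in MRSA and 1.42 in MRSA + PA, beside 2.06 in PA and 3.06 in media. PYGM, the glycogen phosphorylase of muscle, had 63.6, 12.3, 10.2 and 142 FPKM, a log2 difference of -2.36. Myogenic regulators were low throughout, with MYOG (myogenin) at 1.63 FPKM in MRSA and MYF6 at 2.37, both listed at 0 in PA and MRSA + PA. Of the 14 regulator and junction genes, 9 were at least 2-fold lower and 1 higher, beside 5.51% and 1.49% of all features. CHRNE, an acetylcholine receptor subunit, had 72.8, 59.2, 55.5 and 85.0 FPKM.

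Sequences upstream of 2 of these genes are shown because they were among the furthest features and the myogenic factors bind short E-box sequences. The windows are the 250 bases before the gene start that RefSeq gives for the rat assembly GRCr8, read on the gene's strand, with each CAGCTG in capitals.
CKM, chr1:88189211-88189460, plus strand: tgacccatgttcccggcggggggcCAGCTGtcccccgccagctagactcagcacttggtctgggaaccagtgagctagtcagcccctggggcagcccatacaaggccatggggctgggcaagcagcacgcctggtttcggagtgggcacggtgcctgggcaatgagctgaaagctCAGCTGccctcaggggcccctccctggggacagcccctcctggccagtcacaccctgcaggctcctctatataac
ACTA1 (skeletal actin), chr19:68784195-68784444, minus strand: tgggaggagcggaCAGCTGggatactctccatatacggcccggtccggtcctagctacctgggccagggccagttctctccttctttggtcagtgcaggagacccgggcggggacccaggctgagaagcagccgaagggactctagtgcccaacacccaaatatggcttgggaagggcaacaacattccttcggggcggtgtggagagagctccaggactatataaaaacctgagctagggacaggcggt
The hexamer CAGCTG reads the same on both strands. It occurred in 9 of the 19 windows found for the calcium and energy list (47.4%), in 5 of 24 for the contractile list (20.8%) and in 11.9% of all 27457 windows. The nearer copy in CKM ends 69 bases before the gene start and the copy in ACTA1 231. A match describes letters and is not evidence of binding in these samples.

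Fat and tendon were lower as well, though each list held members at equal levels. Of 15 adipocyte genes, 9 were at least 2-fold lower, against 5.51% of all features, and none higher, with a median of -1.48. ADIPOQ, which encodes adiponectin, had 6.79 FPKM in MRSA and 0.271 in MRSA + PA, beside 1.14 in PA and 35.4 in media, a difference of 18.6-fold. GPD1, an enzyme of triglyceride synthesis, had 8.26, 0.299, 0.377 and 25.1 FPKM. These GPD1 levels are those of 1 of 2 features with this name, on chromosome X. FABP4, a fatty acid carrier of adipocytes and macrophages, had its highest level in MRSA, at 264, 106, 113 and 113 FPKM. CFD (adipsin) was at 123, 106, 78.7 and 105 FPKM and differed by -0.21.

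Among 24 genes of tendon and fibrous matrix 8 were at least 2-fold lower, beside the same 5.51%, and none higher, with a median of -0.46. TNMD (tenomodulin, a tendon surface protein) had 17.7 FPKM in MRSA and 0.465 in MRSA + PA, beside 0.421 in PA and 64.5 in media, and KERA (keratocan), a small proteoglycan, 93.9, 0.642, 8.63 and 422 FPKM. The general fibroblast proteoglycans LUM (lumican) and DCN (decorin) were near 0 difference, at 0.23 and -0.07, with DCN levels of 598, 569, 529 and 1412 FPKM. The fibrillar collagens COL1A1 and COL1A2 had 1872, 1171, 1704 and 3463 FPKM and 1558, 1159, 1349.9 and 3062 FPKM, log2 differences of -0.68 and -0.43. Cartilage genes ranged from -4.78 to 0.65, with 5 of 15 at least 2-fold lower, beside the same 5.51%. Among them was COMP, an oligomeric protein of cartilage and tendon, at 21.3, 0.682, 2.14 and 42.4 FPKM. TNMD, KERA, ADIPOQ and GPD1 thus had their lowest levels in the libraries in which muscle was lowest, PA and MRSA + PA, while LUM and DCN had similar levels in all inoculated libraries. In the paper's real-time PCR, however, KERA and GPD1 fell further from media with MRSA than with the mixture, and TNMD fell less. All 67 kept genes of the muscle lists held 0.779% of the FPKM of the longer features in MRSA and 0.0224% in MRSA + PA, and the part of such tissue in the other differences was not tested.

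**Figure D2:**
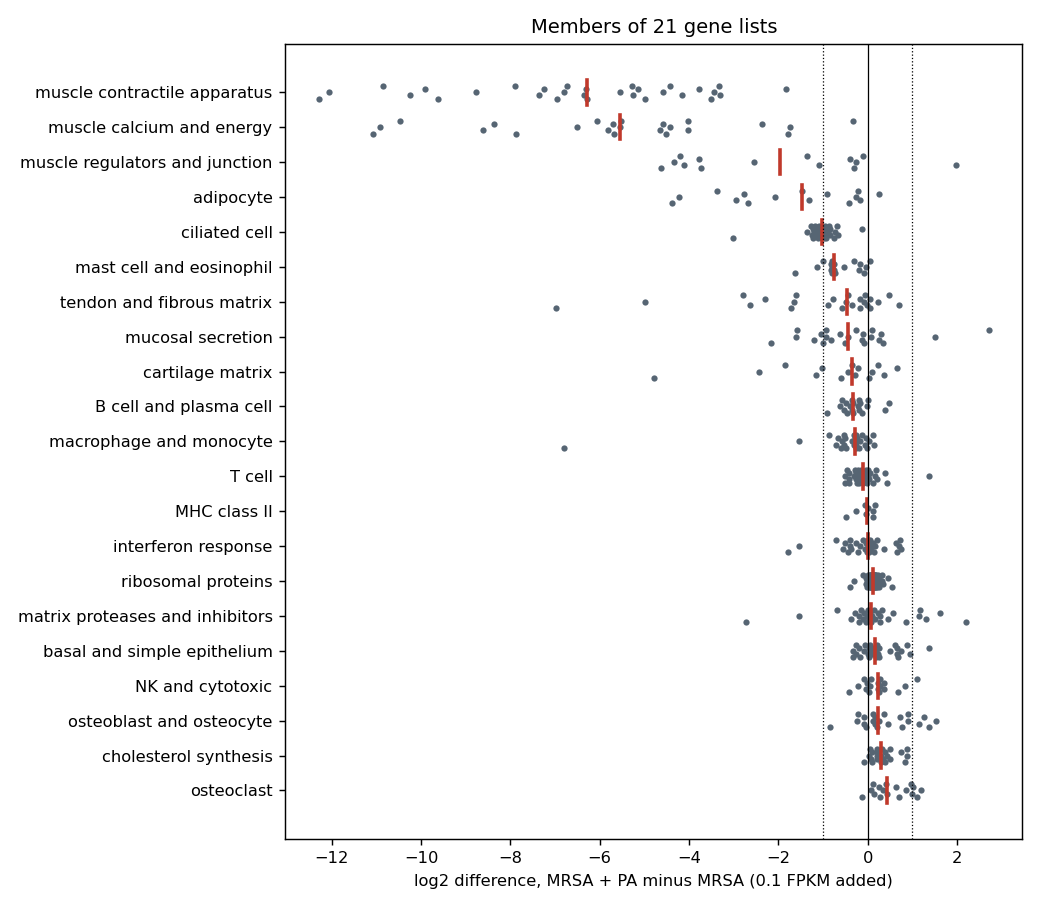
Log2 difference (MRSA + PA minus MRSA, 0.1 FPKM added) of each kept member of 21 gene lists, 1 point a gene, with the list median as a red bar, 0 as a solid line and 2-fold as dotted lines. Muscle lists spread down to -12.3, the ciliated cell list forms a tight cloud around -1.03, the T cell, MHC class II and interferon lists centre near 0, and the osteoclast list has the highest median, 0.43.

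Genes of the motile cilium were lower as a body. All 35 kept members of the ciliated cell list were lower in MRSA + PA than in MRSA, against 51.4% of all features. At least 2-fold lower were 19 of them, against 5.51% of all features. The median was -1.03, and the differences ran from -3.01 to -0.13. Summed levels were 789 FPKM in MRSA and 433 in MRSA + PA, beside 473 in PA and 736 in media. MRSA was thus near media, and both libraries with PA were below it.

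The members belong to every layer of the ciliary apparatus. FOXJ1, which switches on the ciliary programme, was at -1.03 and RFX3, a second regulator, at -0.68, with 3.70, 2.27, 3.62 and 3.25 FPKM. Outer arm motors were close together, with DNAH5 (a dynein heavy chain) at 4.25 FPKM in MRSA and 2.08 in MRSA + PA, beside 3.11 in PA and 5.05 in media and DNAI1 (an intermediate chain) at 6.5, 3.32, 3.58 and 5.56 FPKM. RSPH1, a radial spoke head protein, had 24.7, 12, 15.9 and 19.6 FPKM, and the microtubule-bracing tektins TEKT1, TEKT2 and TEKT4 differed by -1.09, -1.11 and -1.24. HYDIN and SPAG6, of the central pair, differed by -1.19 and -1.0. CAPSL, a calcium-binding protein of ciliated cells, had 58.0, 26.1, 31.6 and 39.8 FPKM, and CCDC113, of the ciliary base, 22.3, 8.65, 9.47 and 19.0 FPKM.

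Only a few members left this narrow range. ZMYND10, an assembly factor of dynein arms, was nearly equal at 87.1 FPKM in MRSA and 79.5 in MRSA + PA, beside 76.8 in PA and 65.9 in media. LDLRAD1, a membrane protein, was furthest apart at 5.51, 0.594, 3.28 and 12.1 FPKM, where the mixed value is under 1 FPKM. TPPP3, the most abundant member, a tubulin-polymerising protein that other cells also make, had 240.3, 134, 119 and 260.5 FPKM. Taken by annotation instead of by the list, 53 kept features have a description that names the cilium, axoneme, flagellum, radial spoke or tektin. Of these, 20 (37.7%, against 5.51% of all features) were at least 2-fold lower and none higher, with a median of -0.94. This set shares genes with the list and is not a separate sample.

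**Figure D3:**
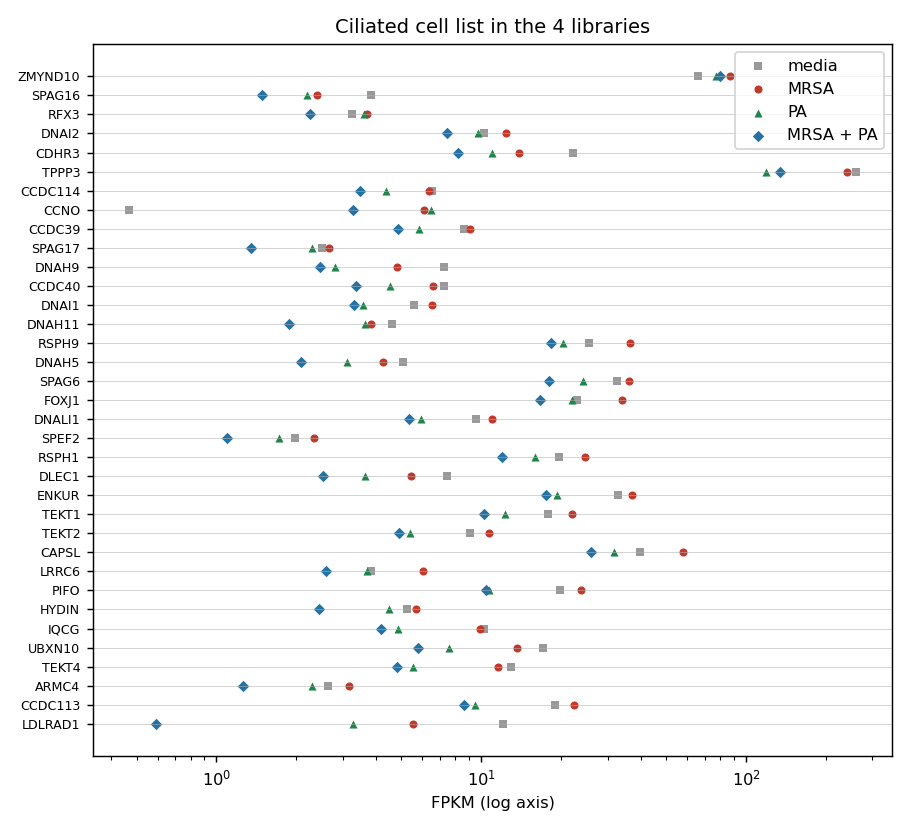
FPKM (log axis) of the 35 kept ciliated cell genes in the media (squares), MRSA (circles), PA (triangles) and MRSA + PA (diamonds) libraries, ordered by their difference between MRSA + PA and MRSA. The MRSA + PA value lies left of the MRSA value in every row, from LDLRAD1 at the bottom to ZMYND10 at the top.

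Upstream windows of 2 ciliary genes are printed because the list differed as a block and RFX factors, which regulate ciliary genes, bind X-boxes that contain GTTGCC. Capitals mark GTTGCC or its reverse complement GGCAAC in the 250 bases before the RefSeq start (GRCr8, gene strand).
CCDC113, chr19:9522958-9523207, minus strand: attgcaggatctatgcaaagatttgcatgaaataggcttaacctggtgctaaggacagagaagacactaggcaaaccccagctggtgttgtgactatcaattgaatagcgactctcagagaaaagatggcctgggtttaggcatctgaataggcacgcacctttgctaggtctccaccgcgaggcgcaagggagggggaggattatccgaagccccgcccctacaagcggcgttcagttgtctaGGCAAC
CAPSL, chr2:60121912-60122161, plus strand: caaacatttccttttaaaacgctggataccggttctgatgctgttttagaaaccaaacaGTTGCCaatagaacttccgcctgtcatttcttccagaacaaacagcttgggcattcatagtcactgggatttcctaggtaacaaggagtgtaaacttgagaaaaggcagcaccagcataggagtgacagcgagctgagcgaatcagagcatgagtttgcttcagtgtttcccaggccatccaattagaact
The hexamer was present on either strand in 11 of the 26 windows found for kept ciliated cell genes (42.3%) and in 9.90% of all windows. In CCDC113 it ends directly at the listed start, and in CAPSL 185 bases before it. TEKT1, TEKT2, HYDIN, SPAG6, UBXN10, IQCG, DNAI2, CCNO and RFX3 hold the other matches. The log2 differences of those with a match and those without overlapped.

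Secretory epithelium was divided. BPIFA1 and SCGB1A1 (club cell secretory protein), the most abundant products, were slightly higher in MRSA + PA, at 0.27 and 0.31, with SCGB1A1 levels of 807 FPKM in MRSA and 1000 in MRSA + PA, beside 1537 in PA and 248 in media. Gel-forming mucins were lower, MUC5B at 16.5, 5.40, 86.1 and 8.82 FPKM and MUC5AC at 2.07, 0.847, 4.55 and 0.551 FPKM. BPIFB1, a relative of BPIFA1 made by goblet cells, had 6.39, 1.36, 7.81 and 2.59 FPKM, and PIGR, which carries IgA and IgM across epithelium, 19.1, 9.16, 35.2 and 8.27 FPKM. SPDEF, the regulator of goblet cells, differed by -0.93. Of the 23 genes of this list 6 were at least 2-fold lower and 2 higher, beside 5.51% and 1.49% of all features. Both higher genes were under 2 FPKM in MRSA + PA, and the median was -0.43. MUC5B and MUC5AC were highest in PA, and MRSA + PA stood below both single inocula for MUC5B, MUC5AC, BPIFB1, PIGR and SPDEF.

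Basal epithelial genes went the other way. KRT5 and KRT14, the keratin pair of basal cells, had 95.4 FPKM in MRSA and 175 in MRSA + PA, beside 393 in PA and 83.6 in media and 161, 256, 483 and 136 FPKM. KRT17, a keratin of injured and proliferating epithelium, had 25.1, 65.3, 95.2 and 8.45 FPKM, the only one of 30 members past 2-fold, at 2.59-fold. LAMA3 and LAMB3, laminin chains of the epithelial basement membrane, were higher by 0.76 and 0.69 on the log2 scale. KRT8, KRT18 and KRT19 of luminal cells were at 0.10, 0.14 and -0.05, and EPCAM at -0.26. Each basal gene named here lay between MRSA and PA in the mixed library. The median over all 30 members was 0.16.

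Genes of bone turnover formed a group on the higher side. Of 17 osteoclast genes, 16 were above 0 log2 difference, against 48.3% of all features, and 4 were at least 2-fold higher, against 1.49%, and none lower, with a median of 0.43. CTSK had 1259.8 FPKM in MRSA and 2491 in MRSA + PA, beside 659 in PA and 1172 in media and ACP5 (tartrate-resistant acid phosphatase, the classical osteoclast enzyme) 395, 807, 221 and 424 FPKM. DCSTAMP, needed for the fusion of osteoclast precursors, had 15.3, 35.1, 9.98 and 18.3 FPKM, and ITGB3, the integrin chain with which osteoclasts grip bone, 43.2, 93.6, 34.7 and 33.2 FPKM. The differences between MRSA + PA and MRSA were 1.98-fold, 2.04-fold, 2.29-fold and 2.16-fold. CTSK was thus just short of 2-fold, and OSCAR, another osteoclast marker, was the remaining member past it. For CTSK, ACP5, DCSTAMP and ITGB3 the mixed library had the highest level of the 4 libraries. For these, PA alone had a level at or below that of MRSA. OSCAR was instead highest in PA, at 3.05 FPKM in MRSA and 6.22 in MRSA + PA, beside 7.85 in PA and 2.22 in media.

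Further osteoclast members followed at smaller sizes. MMP9, a gelatinase of osteoclasts and neutrophils, had 116 FPKM in MRSA and 209.8 in MRSA + PA, beside 71.7 in PA and 96.1 in media, and ATP6V0D2, a subunit of the acid pump, 69.4, 113, 29.7 and 53.9 FPKM. CKB, the brain-type creatine kinase that osteoclasts also carry, had 414, 643, 298 and 399 FPKM. NFATC1, the master regulator of osteoclast formation, differed by 0.34, TNFRSF11A (RANK) by 0.41 and OCSTAMP by 0.14. TNFSF11 (RANKL), the signal that drives osteoclast formation, had 2.50, 6.63, 2.13 and 2.36 FPKM, and TNFRSF11B (osteoprotegerin, its decoy receptor) 14.1, 23.4, 17.4 and 13.3 FPKM. SLC9B2, an exchanger known from osteoclasts, had 15.5, 41.2, 9.53 and 15.7 FPKM.

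Bone matrix genes separated by stage. The acidic SIBLING glycoproteins, which bind mineral, are neighbours on chromosome 14, and their 4 expressed members were higher together. SPP1 (osteopontin) had 2276 FPKM in MRSA and 5466 in MRSA + PA, beside 2179 in PA and 3308 in media, IBSP (bone sialoprotein) 122, 270.5, 88.9 and 257 FPKM, DMP1 (dentin matrix protein of osteocytes) 48.4, 141, 35.4 and 132 FPKM and MEPE (an osteocyte phosphoglycoprotein) 14.1, 26.5, 8.10 and 26.4 FPKM. The log2 differences were 1.26, 1.14, 1.54 and 0.91, and DSPP, the fifth member, was listed at 0 in both libraries compared. IBSP, DMP1 and MEPE had about the same level in MRSA + PA as in media, and SPP1 a higher one.

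General osteoblast genes did not share this. BGLAP differed by 0.25, the transcription factors SP7 and RUNX2 by -0.09 and 0.36, and ALPL (the alkaline phosphatase of mineralising cells) by -0.22, with ALPL levels of 95.7 FPKM in MRSA and 82.4 in MRSA + PA, beside 65.5 in PA and 157 in media. SPARC (osteonectin) had 1668, 1408, 1466 and 3619 FPKM. Over the 22 osteoblast and osteocyte genes, 4 were at least 2-fold higher, against 1.49% of all features, and none lower, with a median of 0.23. SFRP4, a secreted antagonist of WNT signals in bone, had 275, 711, 272 and 334 FPKM.

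Matrix metalloproteinases differed in both directions within 1 chromosomal cluster. MMP13 (collagenase 3, which cleaves bone and cartilage collagen) had 519.5 FPKM in MRSA and 2388 in MRSA + PA, beside 587 in PA and 1366 in media, a difference of 4.6-fold and the furthest of the protease list on the higher side. Its neighbours MMP3 and MMP10, the stromelysins, had 6.51, 20.3, 13.3 and 46.2 FPKM and 1.69, 4.34, 1.94 and 6.27 FPKM. MMP12, the elastase of macrophages, had 246, 85.1, 77.6 and 13.2 FPKM, and MMP7 (matrilysin of epithelium) 12.3, 1.77, 9.02 and 0.579 FPKM, both lower in MRSA + PA and MMP7 by 6.63-fold. MMP8, the neutrophil collagenase of the same cluster on chromosome 8, was nearly equal at 5.38, 5.56, 2.90 and 4.40 FPKM. MMP13 and MMP3 were lowest in MRSA and MMP12 highest, so the 3 neighbours ranked the libraries differently.

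Upstream sequences of 4 of the 5 cluster members past 2-fold are shown to compare genes with differences in opposite directions that carry the same AP-1-type sequence near the start. Printed are the 100 bases before the RefSeq start on rat chromosome 8 (GRCr8, plus strand), with TGANTCA in capitals.
MMP13, chr8:12782729-12782828: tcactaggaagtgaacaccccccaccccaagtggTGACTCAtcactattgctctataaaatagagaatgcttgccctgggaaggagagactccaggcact
MMP3, chr8:12925181-12925280: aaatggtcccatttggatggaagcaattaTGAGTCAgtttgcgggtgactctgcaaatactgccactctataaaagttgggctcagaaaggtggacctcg
MMP10, chr8:12974607-12974706: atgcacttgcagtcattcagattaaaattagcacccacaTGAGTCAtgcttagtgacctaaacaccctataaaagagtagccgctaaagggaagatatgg
MMP12, chr8:12866552-12866651: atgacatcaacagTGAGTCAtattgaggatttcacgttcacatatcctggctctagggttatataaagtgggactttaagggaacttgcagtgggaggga
The match ended 59, 64, 54 and 80 bases before the start. TGANTCA, which reads the same on both strands, was found in 6 of 23 windows of kept protease and inhibitor genes (26.1%) and in 6.36% of all windows. MMP7 holds a match as well, so the cluster members that were higher and those that were lower shared the motif. The search covered 4 motifs, the last being TGNGGTT of RUNX factors, which was present in 3 of 13 osteoblast and osteocyte windows (23.1%), 2 of 10 osteoclast windows (20%) and 12.7% of all windows.

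An inhibitor of proteolysis was higher as well. TIMP1, the inducible inhibitor of metalloproteinases, had 232 FPKM in MRSA and 523 in MRSA + PA, beside 297 in PA and 305 in media, a difference of 2.25-fold. TIMP2, MMP2 and MMP14, which act together at the cell surface, differed by -0.09, -0.01 and 0.01. Over the 31 proteases and inhibitors, 5 were at least 2-fold higher and 2 lower, beside 1.49% and 5.51% of all features. The median was 0.07.

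**Figure D4:**
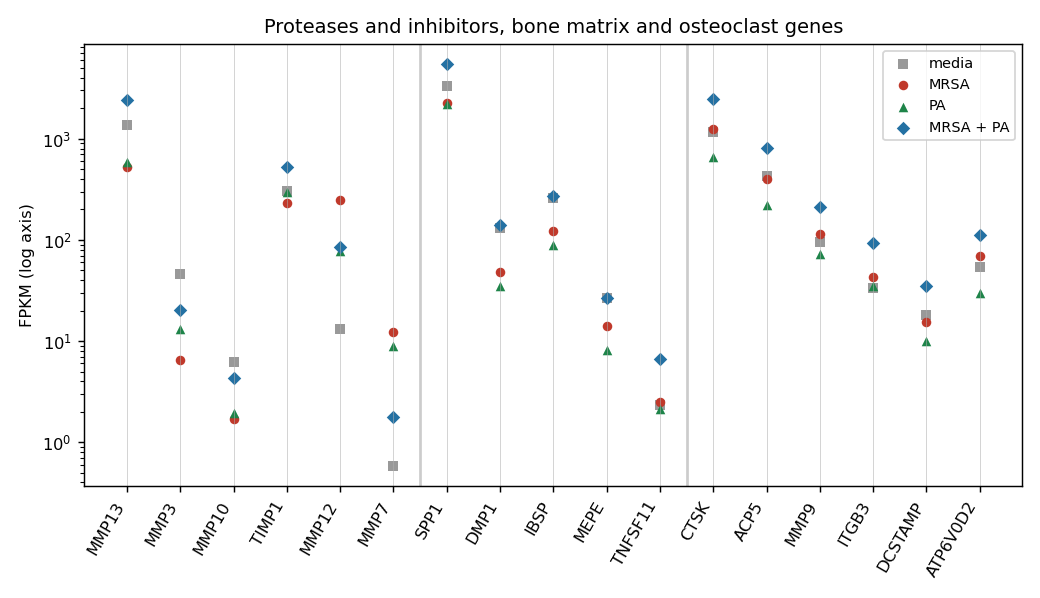
FPKM (log axis) of proteases and inhibitors (left), bone matrix genes and RANKL (middle) and osteoclast genes (right) in the media (squares), MRSA (circles), PA (triangles) and MRSA + PA (diamonds) libraries. MRSA + PA is the highest of the 4 for MMP13, TIMP1, SPP1, TNFSF11, CTSK, ACP5, MMP9, ITGB3, DCSTAMP and ATP6V0D2, while MMP12 and MMP7 are highest in MRSA.

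Macrophage transcripts were a little lower in MRSA + PA. Of 29 genes, 26 were below 0 log2 difference, against 51.4% of all features, but the median was -0.29. Past 2-fold were 2 of them, beside 7.01% of all features. APOE, the lipid carrier that macrophages secrete, had 12184 FPKM in MRSA and 8170.2 in MRSA + PA, beside 6352 in PA and 3539.6 in media, and GPNMB, a glycoprotein of lipid-laden macrophages, 1187, 648, 743 and 177 FPKM. FABP5 and TREM2, a fatty acid carrier and a lipid-sensing receptor, differed by -0.72 and -0.65. The complement chains C1QA, C1QB and C1QC, made by resident macrophages, differed by -0.02, -0.06 and -0.03, and CSF1R, the receptor for their growth factor, by 0.12. LYZ2 was the furthest member at 106, 0.850, 0.731 and 9.62 FPKM, but LYZ1, the neighbouring lysozyme gene, had 10972, 10356, 7802 and 1436 FPKM, and reads of such close copies can be assigned to either.

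Single macrophage-related genes outside that list stood further apart. PF4, a platelet and macrophage chemokine, had 413 FPKM in MRSA and 137 in MRSA + PA, beside 128 in PA and 109 in media, and CCL9, a myeloid attractant, 134, 69.9, 50.3 and 9.26 FPKM. CD5L, a secreted protein of tissue macrophages, was at 31.8 FPKM in MRSA and 3.38 in MRSA + PA, beside 4.0 in PA and 0.847 in media, a log2 difference of -3.20. For PF4 and CD5L the mixed library was near PA and well below MRSA. Mast cell and eosinophil genes had a median of -0.75, with 17 of 18 below 0, against 51.4% of all features. At least 2-fold lower were 3, against 5.51% of all features, among them MCPT2 (a mast cell protease) at 17.7, 5.63, 14.1 and 15.6 FPKM.

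T cell, antigen presentation and interferon genes were near equality. The T cell list of 37 genes had a median of -0.11, and the signalling chains CD3D, CD3E and CD3G differed by 0.04, -0.29 and 0.11. CD3D had 37.5 FPKM in MRSA and 38.4 in MRSA + PA, beside 33.6 in PA and 5.60 in media. The only member of the list past 2-fold was TIGIT, an inhibitory receptor, at 0.863, 2.39, 1.39 and 0.119 FPKM. MHC class II genes had a median of -0.02, with CD74, the chain that guards their binding groove, at 3539, 3431, 2233 and 1237 FPKM. The 34 interferon-response genes had a median of 0.00, with 2 at least 2-fold lower and none higher, beside 5.51% and 1.49% of all features. UBD, a ubiquitin-like protein induced by interferon-gamma, was at 73.4, 124, 43.4 and 19.0 FPKM. Inflammatory cytokines and receptors had a median of -0.04, and IL1B, the fever-inducing interleukin, had 57.1, 54.6, 65.1 and 17.3 FPKM.

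For most NK and cytotoxic genes MRSA + PA stood with MRSA, while PA stood lower. The median difference from MRSA over the list was 0.23, whereas PA minus MRSA gave -1.51 over the same genes. Above 0 were 13 of 18, against 48.3% of all features, and 1 was at least 2-fold higher, against 1.49%. CCL5, a chemokine of cytotoxic cells, had 71.9 FPKM in MRSA and 92.5 in MRSA + PA, beside 12 in PA and 17.2 in media, and GZMM, a granule protease, 25, 26.3, 2.77 and 4.92 FPKM. XCL1, a chemokine of NK cells, had 5.0, 9.01, 1.43 and 3.64 FPKM. The summed levels of the contractile and ciliated cell lists, by contrast, lay nearer to PA than to MRSA in the mixed library. So did SH2D1B, the NK and cytotoxic gene past 2-fold, at 5.11, 11.1, 11.2 and 0.922 FPKM. CD244 of the same list was highest in PA, at 7.95, 5.94, 9.76 and 3.30 FPKM, and NCR1 and NCR3 had similar levels in MRSA and PA.

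Antibody transcripts differed feature by feature. The 137 kept features described as immunoglobulin chains held 28 at least 2-fold higher (20.4%) and 68 at least 2-fold lower (49.6%), so that most of them passed 2-fold, against 7.01% of all features. Their summed level was 8923 FPKM in MRSA and 3979 in MRSA + PA, beside 8069 in PA and 743 in media. A single feature, named after the heavy chain segment IGHV1OR21-1 on chromosome 6, accounted for 26.4% of the sum in MRSA and 70.3% in PA. It was listed at 0 in media and MRSA + PA. This feature spans 85843 bp, beside 423 bp for the HVM45_MOUSE feature named below, so it may cover more than 1 segment. Without it the sums were 6565, 3979, 2398 and 743 FPKM in the same order. The order of MRSA above MRSA + PA therefore did not rest on that feature, while the place of PA did.

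Some features were abundant in both libraries. A feature of 101469 bp named after the lambda segment LV603_HUMAN had 223 FPKM in MRSA and 646 in MRSA + PA. One of 224073 bp named after the kappa segment KV206_HUMAN had 245 and 200 FPKM. Features this long may cover more than 1 segment. Other features were abundant in only 1 of the 2 libraries compared. A feature of HVM45_MOUSE, a heavy chain segment, had 6.96 FPKM in MRSA and 128 in MRSA + PA, beside 10.1 in PA and 0 in media. KV501_HUMAN, a kappa segment, had 17.3, 173, 7.87 and 0 FPKM in the same order, and a feature of KV3A9_MOUSE, another kappa segment, 43.9, 0, 4.83 and 1.34 FPKM. Of the 15 named features furthest on the higher side 11 were immunoglobulin features, and of the 15 furthest on the lower side 2 were, beside 11 muscle genes. By chromosome, summed levels were 4777 FPKM in MRSA and 974 in MRSA + PA for the 60 features of chromosome 6 (heavy chain, constant regions included), 2418 and 974 without IGHV1OR21-1, and 2010.0 and 1206 for the 49 on chromosome 3. The 6 on chromosome 11 were the other way, at 487 and 1060.0 FPKM. Such names are those of the closest known chain, several of them mouse or human entries, and similar segments can share reads.

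Constant regions, which every antibody of a class shares, were lower in the mixed library or about equal. The feature named IGHM, after the mu chain, had 484 FPKM in MRSA and 161 in MRSA + PA, beside 139 in PA and 42.9 in media. The kappa constant region KACB_RAT had 634, 227, 238 and 51.0 FPKM. IGHM spans 239164 bp, beside 8407 bp for KACB_RAT, and whether it holds other heavy chain classes was not tested. A feature of 182417 bp named IGHE_RAT had 93.4, 47.3, 86.2 and 2.93 FPKM. The lambda-2 constant region LAC2_RAT was about equal at 158, 171, 90.9 and 23.9 FPKM. IGJ, the joining chain of polymeric antibodies, had 229, 122, 101 and 30.2 FPKM. The genes of the B cell and plasma cell list, without these chains, had a median of -0.33. Below 0 were 17 of 20, against 51.4% of all features, and none passed 2-fold, beside 7.01%. Among them CD79A, of the B cell receptor, had 14.1, 9.72, 11.3 and 8.35 FPKM and XBP1, a driver of antibody secretion, 94.4, 75.2, 98.2 and 109 FPKM.

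T cell receptor segments past 2-fold were mostly on the higher side, while their summed level was about equal. Of 48 kept features, 10 were at least 2-fold higher (20.8%, against 1.49% of all features and 20.4% of immunoglobulin features) and 1 lower (2.08%), with a median of 0.33 and summed levels of 409 FPKM in MRSA and 425 in MRSA + PA, beside 427 in PA and 77.1 in media. The higher ones were mostly on chromosome 15, where 9 of 23 segments were at least 2-fold higher and 1 lower. Those 23 summed to 131 FPKM in MRSA and 137 in MRSA + PA. Of the sum over all 48, the top 10 features of each library held 73.9% in MRSA and 69.3% in MRSA + PA.

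**Figure D5:**
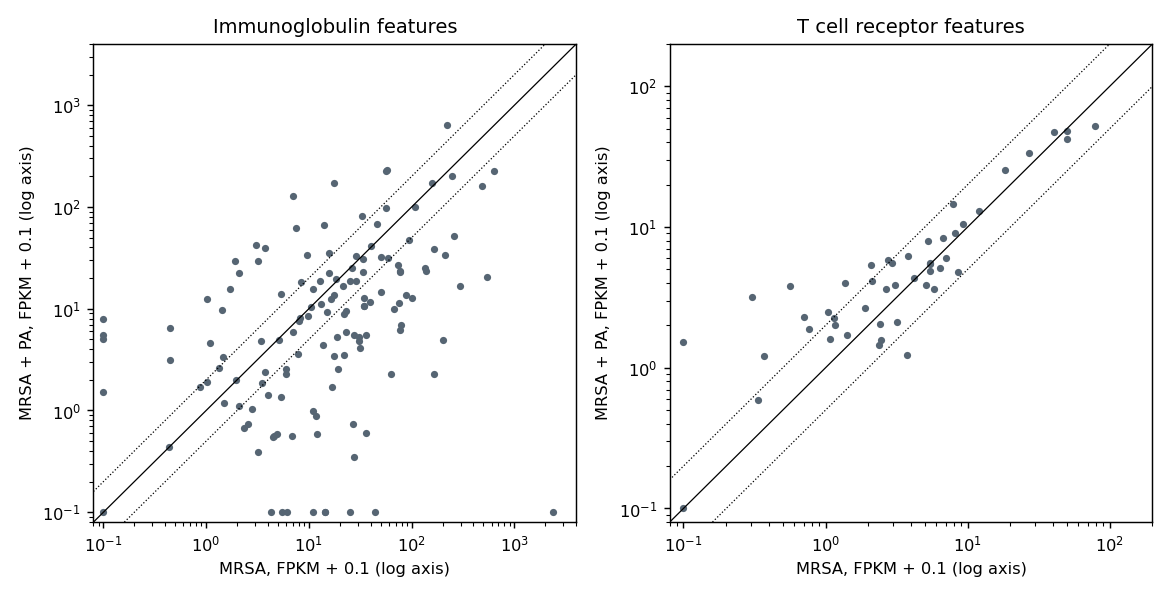
FPKM + 0.1 (log axes) in MRSA (x) and MRSA + PA (y) of 137 immunoglobulin features (left) and 48 T cell receptor features (right), with equality (solid) and 2-fold (dotted). Immunoglobulin features scatter widely to both sides of the diagonal at every level, while most T cell receptor features lie within the 2-fold lines.

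Housekeeping processes were close to equal. The 76 ribosomal protein genes had a median of 0.12 and none passed 2-fold. The 39 nuclear-encoded respiratory chain genes had a median of -0.14 with 37 below 0, against 51.4% of all features. ATP5B, of the ATP synthase, had 584 FPKM in MRSA and 577 in MRSA + PA, beside 454 in PA and 678 in media. Cholesterol synthesis genes had a median of 0.30 with 22 of 23 above 0, against 48.3% of all features. None of them passed 2-fold, beside 7.01% of all features. INSIG1, the sterol sensor's partner, was at 26.2, 46.9, 19.6 and 44.3 FPKM. Cell division genes had a median of 0.04, with PCNA at 70.8, 72.8, 69.8 and 55.3 FPKM. Of the 49 lists, 14 had no member past 2-fold and 36 had a median within 0.25 of 0. In the iron list HFE2 (hemojuvelin, made by muscle and liver) was the only member past 2-fold, with 16.1 FPKM in MRSA and listed at 0 in MRSA + PA. TFRC, the transferrin receptor, was at 49.4, 95.6, 33.1 and 29.5 FPKM, and haemoglobin HBB was equal at 814, 790.2, 409 and 3672 FPKM.

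Some of the furthest values belong to genes with copies and are uncertain. LILRB3, a leukocyte receptor with 8 features, had 1 feature on chromosome 1 at 537 FPKM in MRSA and 0.152 in MRSA + PA, and over all 8 features the sums were 606 and 66.8 FPKM. RPS2, a ribosomal protein with 19 features, had 1 at 96.0 FPKM in MRSA and 0 in MRSA + PA, beside sums of 885 and 634 FPKM. COX7B, a respiratory subunit, had 511 and 4.26 FPKM on chromosome 6 but 510.01 and 475 FPKM at its other feature on X. ZFP120, with 43 features, had 1 at 56.3 FPKM in MRSA + PA that was listed at 0 in the other 3 libraries.

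A pair of very large differences had no gene name and came from 1 interval of chromosome 20 read on opposite strands. A feature of 41316 bp on the plus strand had 1986 FPKM in MRSA and 0 in MRSA + PA, beside 3022 in PA and 2762 in media, while a feature of 41315 bp on the minus strand was listed at 0 in media, MRSA and PA and at 4764 FPKM in MRSA + PA. Summed over the 7 features that overlap there, the levels were 2249 FPKM in MRSA and 5004 in MRSA + PA. Over the whole comparison, 32 of the features past 2-fold had such an overlapping partner and 14 came within 2-fold when the partners were summed.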

How the data were processed

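RNA of the scraped middle ear lining was sequenced by the authors as 1 library for each of media, MRSA, PA and MRSA + PA. Conditions were taken from the sample labels, whose treatment text describes MRSA for every sample. The submitters' processing notes name STAR 2.3.0e, Cufflinks 2.1.1 and edgeR. The FPKM values were made by the authors and deposited for 27832 features. The paper names the human reference, yet chromosome names in the table run to 20 plus X, as the rat's do, and no build is named in the table, so positions in the data are given by chromosome. The authors' 3 deposited comparison tables hold fold changes and test results against media and were not used, and 12 columns in them that repeat values of these libraries were left out.

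FPKM carries no read counts, so no counting interval was set. The paper's text gives a range and an average of raw reads over all samples, but not the depth of each library. Among 1739 features under 0.3 FPKM in both libraries the ratio of MRSA + PA to MRSA was most often 1.04, with further peaks 1 log2 unit to each side, so single-read steps of the 2 libraries were of nearly the same size.

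Differences were computed as log2 ratios with 0.1 FPKM added, over features of at least 300 bp averaging 1 FPKM or more across the 4 libraries, and counted at 2-fold. No test was made. Members of 49 gene lists were matched on gene symbol, printed in upper case, with the feature of the highest mean for each gene. Lists, members and rules were chosen with earlier results of these data known. Text names were drawn from features with a gene name and an average of 5 FPKM or more (the 15 furthest on either side) and from every list (its 4 highest by mean and 4 by difference). Cell type markers were named as well. Other list members, SLC9B2, SFRP4, CD5L, COX7B and the immunoglobulin constant regions were named after their values were seen. Upstream sequence came from RefSeq (GRCr8), where 9650.0 of 13218 kept gene names were found, with the first start listed for a gene. The arithmetic was tested on simulated data. Alternatives were other added values, scalings, filters and fold limits. Python 3.11.15, numpy 2.4.6, pandas 2.3.3 and matplotlib 3.10.9 were used. Some items are not reported here.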

Additional observations from a re-analysis of the deposited data

Results flagged for a closer look

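Features under 300 bp were left out of the comparison. Among the 158 of them with a mean of at least 1 FPKM, 25 exceeded their media level by 2-fold or more in MRSA + PA, which brought them here as a signal in data that the report does not use. Against MRSA, 20 were higher and 44 lower, together 40.5%, beside 7.01% of the longer features.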

How the results depend on the processing

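The excess of lower over higher features held under each alternative run. With 1 FPKM added, 136 features were higher and 550.0 lower, and with no filter on FPKM 791 and 1917. Where 5 FPKM on average was required 88 were higher and 383 lower. At 1.5-fold the counts were 647 and 1631, and at 4-fold 68 and 333. Without immunoglobulin, T cell receptor and unnamed features, an alternative chosen after seeing the data, 103 were higher. The remaining alternatives, rescaling among them, left both counts within 1.5 times and the median of all features between -0.03 and 0.01. No list or named gene past 2-fold changed sign. Of 49 list medians, 3 moved by more than 1.5-fold with 1 FPKM added, 1 with 0.01 and 1 under the 5 FPKM filter, all of them muscle lists, and summing all features of a gene's name moved none. Of 366 named genes, 54 moved as much with 1 FPKM added and 26 with 0.01.

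No paired analysis was possible because each condition has 1 library and the labels give no replicate numbers. No library was left out for the same reason, and the spread between animals is unknown. Low features rest on few reads, and genes with copies or overlapping loci depend on how reads were assigned.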

Other observations

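Smaller groups held single genes that differed. In vessels, PLVAP, a protein of the endothelial diaphragm, had 76.8 FPKM in MRSA and 127.6 in MRSA + PA, beside 85.1 in PA and 113.8 in media. Of the 30 endothelial genes, 25 were above 0 log2 difference, against 48.3% of all features. None passed 2-fold, beside 7.01% of all features, and the median was 0.18. Among 31 chemokine genes CCL19, which draws T cells and dendritic cells, was higher at 10.4, 24.1, 5.87 and 6.17 FPKM in the same order, while CCL11, an eosinophil attractant, was lower at 5.46, 0.0909, 0.127 and 26.2 FPKM. CFI, the protease that inactivates C3b, had 34.3, 83.6, 76.4 and 24.7 FPKM, where both libraries with PA were above MRSA. PLA2G2A, a secreted phospholipase active against Gram-positive bacteria, had 18.2, 44.2, 12.7 and 29.0 FPKM.

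Stromal patterning factors were near equality as a list, with a median of 0.05 over 26 genes. At least 2-fold lower were 3 of them, beside 5.51% of all features. TBX15, a T-box factor, had 6.30 FPKM in MRSA and 0.690 in MRSA + PA, beside 0.724 in PA and 21.2 in media, and FOXD1 1.26, 0.183, 0.279 and 5.55 FPKM. Of the immediate early genes, FOSB was lower at 28.1, 11.3, 7.37 and 66.0 FPKM and NR4A1 1.87-fold higher at 44.3, 83.0, 43.7 and 77.5 FPKM.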
